A study of Mus musculus with 12 samples.

Results

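Genes of retinoic acid synthesis and signalling were followed in cultured stroma of the mouse small intestine. They are the retinaldehyde dehydrogenase genes Aldh1a1, Aldh1a2 and Aldh1a3, the binding protein genes Crabp1 and Crabp2, the receptor genes Rara, Rarb and Rarg, and Cyp26b1, which encodes a retinoic acid hydroxylase. The members were taken by gene symbol, 9 of the 23329 genes listed for each library, and 8 of them passed the filter on low counts (Crabp1 did not). The stroma was taken at E14.5 (embryonic) or from adult mice of the C57BL6/J background and was grown as primary cultures to passage 2 to 3. The cells received LPS of Escherichia coli, stated as 10 µg/µl, or the vehicle PBS for 6 h. Each of the 4 groups, embryonic PBS, embryonic LPS, adult PBS and adult LPS, held 3 poly(A)-selected, stranded RNA libraries. Each embryonic culture was a pool of embryos, whereas the adult cultures came from single mice as far as the methods tell, so an embryonic value averages several animals. The epithelium was removed before plating, and the cells that remained were not sorted.

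Retinoic acid is made from vitamin A. Retinol is first oxidised to retinaldehyde, and the retinaldehyde dehydrogenases then oxidise retinaldehyde irreversibly to retinoic acid. Inside the cell, retinoic acid is carried by the CRABP proteins, binds the nuclear receptors RARα, RARβ and RARγ, which pair with RXR on DNA, and is degraded by enzymes of the CYP26 family. In the gut, retinoic acid made by stromal and dendritic cells is known for its part in the homing of lymphocytes and in the induction of regulatory T cells, and in the embryo it patterns the gut tube and its mesenchyme.

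Rarb and Cyp26a1, a relative of Cyp26b1, are known target genes of the receptors themselves, and the sequences just before their start sites are shown because both genes differed between the stages in these libraries. In RefSeq's windows of GRCm38.p6, from 250 bases before a start site to 50 after it, 7 of the 9 genes had a window. The motif searched was a direct repeat with 5 bases between the copies, on either strand, each copy being AGGTCA or a variant of it, which could be AGTTCA or else GGGTCA or else GGTTCA. It was present in 0.0974% of 32851 windows. Among the 7 genes with a window, it was present in Rarb alone. Among the other genes of the pathway, of which 48 of 70 had a window, it was present in Cyp26a1 alone. The 100 bases before each start site follow, 5′ to 3′ in the direction of the gene, with the repeat in capitals. The Rarb stretch is chr14:16575477-16575576 on the minus strand, with the repeat 53 to 37 bases before the start. The Cyp26a1 stretch is chr19:37697708-37697807 on the plus strand, with the repeat on the opposite strand, 32 to 16 bases before the start.
Rarb: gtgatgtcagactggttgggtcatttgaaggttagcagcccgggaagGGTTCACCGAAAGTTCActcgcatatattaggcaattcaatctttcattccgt
Cyp26a1: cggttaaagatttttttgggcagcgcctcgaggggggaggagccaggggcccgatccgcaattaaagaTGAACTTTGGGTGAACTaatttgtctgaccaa
The counts are per gene and do not show which start site was used, and Rarb has others, since its record runs from 16430839 to 17082331 on chromosome 14. The Cyp26a1 record begins at 37697738, before the start used here, so the repeat shown lies within that record. The same repeats with 1 or 2 bases between the copies were present in 0.222% and 0.268% of windows. None of the 7 genes with a window carried them. Among the other pathway genes with a window, the repeat with 1 base was found in Bco1, whose product cleaves beta-carotene.

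Between 18850224 and 32672370 reads were counted on genes in each library, and 3 counts corresponded to between 0.0897 and 0.145 CPM, a floor that covers counting error only. CPM are counts scaled to the library size after TMM normalisation. The labels call the cells intestinal myofibroblasts. All 8 fibroblast markers and all 6 smooth muscle markers were detected in every library, with summed levels from 10395 to 23875 CPM and from 14141 to 34522 CPM, although Pdgfra was at only 2.24 to 5.84 CPM in embryonic libraries against 28.5 to 121 CPM in adult libraries. Of the epithelial markers, Cdx2 was at 0 in every library, and Krt20 made up most of the sum, which was 21.9 to 59.5 CPM in embryonic and 7.47 to 13.8 CPM in adult libraries. Other cell types were present and uneven. The sum of 10 leukocyte and macrophage markers was 151 to 2119 CPM in embryonic and 15.2 to 184 CPM in adult libraries, and the sum of 7 endothelial markers reached 1758 and 1690 CPM in adult culture 2 but no more than 36.5 CPM in embryonic libraries. In bulk libraries, fewer cells of a type and less RNA per cell cannot be told apart. Cultures numbered 2 stood apart from the others of their stage in several members, so values without them are given beside the results they touch, a choice made after the data were seen.

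The first comparison asked how the stages differed. Cyp26b1 was lower and Rarb was higher in embryonic than in adult stroma, and these were the only 2 of the 8 tested members called at an adjusted p under 0.05 in the PBS libraries (quasi-likelihood test of edgeR, adjusted by Benjamini-Hochberg), where 4.08% of all tested genes were called. The same 2 were called between LPS libraries, where 5.31% of all tested genes were called. Libraries of the same stage with LPS and with PBS share their cultures, so these comparisons are not independent of each other. The median log2 fold change (embryonic minus adult) of the 8 members was −0.80 with PBS and −0.53 with LPS, against 0.02 over all tested genes in each. The embryonic and adult levels of 3 of the 8 members, Aldh1a3, Rarb and Cyp26b1, did not overlap over the 6 libraries of each stage, as was so for 9.86% of all tested genes.

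**Figure D1:**
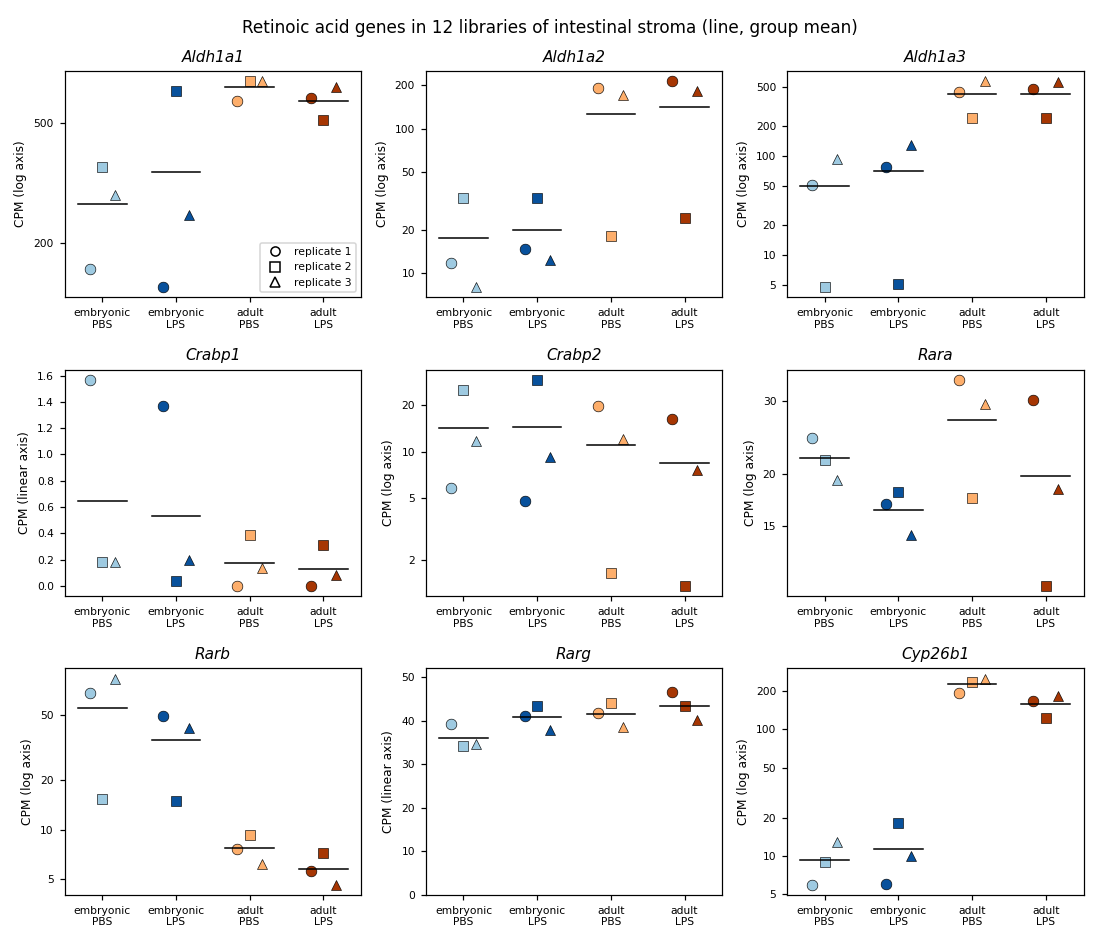
CPM of the 9 genes in each of the 12 libraries (points, with a shape for each replicate number) and the mean of each group (line); the axes are logarithmic except for Crabp1 and Rarg. Cyp26b1 lay between 5.94 and 18.1 CPM in embryonic and between 122 and 251 CPM in adult libraries, while Rarg lay between 34.3 and 46.5 CPM in all 12.

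Cyp26b1 (chromosome 6, 84571414 to 84593908), whose product clears retinoic acid from cells, had the largest difference between the stages of the 8 members. The embryonic PBS libraries were at 5.94, 8.99 and 12.9 CPM and the adult PBS libraries at 194, 235 and 251 CPM. With LPS, the embryonic libraries were at 6.03, 18.1 and 10.0 CPM and the adult libraries at 168, 122 and 182 CPM. Every adult library thus lay far above every embryonic library with either treatment. The group means were 9.29 ± 3.51 CPM (SD, n = 3) in embryonic PBS, 11.4 ± 6.17 in embryonic LPS, 227 ± 29.6 in adult PBS and 158 ± 31.3 in adult LPS. The log2 fold change was −4.61 with PBS (adjusted p = 0.000674 by the same edgeR test, standard error (SE) 0.43), a level 24.4-fold lower in embryonic stroma, and −3.79 with LPS (SE 0.42, adjusted p = 0.00217). Both calls remained in all 12 fits that left out 1 library each.

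Rarb (chromosome 14) encodes RARβ, a receptor whose own gene retinoic acid is known to induce. The embryonic PBS libraries were at 68.2, 15.3 and 83.2 CPM and the adult PBS libraries at 7.66, 9.25 and 6.17 CPM. With LPS, the embryonic libraries were at 49.2, 15.0 and 41.8 CPM and the adult libraries at 5.57, 7.20 and 4.62 CPM. Embryonic culture 2 was the lowest embryonic culture with either treatment, but it still lay above all adult libraries. Rarb was 7.23-fold higher in embryonic stroma with PBS (log2 fold change 2.85, SE 0.60, adjusted p = 0.0305, edgeR) and 6.09-fold higher with LPS (log2 fold change 2.61, SE 0.60, adjusted p = 0.0358). Its fold kept its size when libraries were left out in turn (log2 fold changes of 2.44 to 3.29 with PBS and 2.29 to 2.97 with LPS), but its call did not always hold. The PBS call was lost without embryonic PBS 1 (adjusted p = 0.0783), embryonic PBS 3 (0.0733), adult PBS 1 (0.0933), adult PBS 2 (0.0834), adult PBS 3 (0.138) or adult LPS 3 (0.0512). The LPS call was lost without embryonic LPS 1 (adjusted p = 0.0767), embryonic LPS 3 (0.0908), adult PBS 1 (0.0541), adult PBS 2 (0.0513), adult PBS 3 (0.0580), adult LPS 1 (0.105), adult LPS 2 (0.0850) or adult LPS 3 (0.149). Without both libraries of embryonic culture 2, the adjusted p was 0.000397 with PBS and 0.000482 with LPS, and without those of adult culture 2 it was 0.104 and 0.111. Both calls of Rarb were also lost when the model held only the 6 libraries compared.

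The 3 retinaldehyde dehydrogenase genes, which encode the enzymes of the last step of synthesis, had negative fold changes (lower in embryonic stroma) that did not pass the test with all 12 libraries. Aldh1a1 (chromosome 19, 20492583 to 20643463) was at 164, 357 and 288 CPM in embryonic PBS and at 594, 692 and 692 CPM in adult PBS libraries. With LPS it was at 142, 640 and 248 CPM in embryonic and at 610, 512 and 660 CPM in adult libraries. The groups did not overlap with PBS, but with LPS the library of embryonic culture 2 reached the adult range. The log2 fold change of Aldh1a1 was −1.29 with PBS (SE 0.47, adjusted p = 0.154, edgeR) and −0.79 with LPS (SE 0.46, adjusted p = 0.362). Without the embryonic LPS 2 library it was −1.29 and −1.61, and both comparisons were then called (adjusted p = 0.0396 and 0.0314, edgeR). This was the only 1 of the 12 fits without 1 library that called Aldh1a1. In the others its adjusted p reached 0.348 with PBS and 0.619 with LPS.

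Aldh1a2 (chromosome 9, 71215789 to 71296243), the main source of retinoic acid in the early embryo, was at 11.7, 33.1 and 8.01 CPM in embryonic PBS and at 192, 18.2 and 170 CPM in adult PBS libraries. With LPS it was at 14.7, 33 and 12.4 CPM in embryonic and at 214, 24.2 and 184 CPM in adult libraries. The stages overlapped through cultures numbered 2 alone, the highest embryonic and the lowest adult culture. The log2 fold change was −2.85 with PBS (SE 0.99, adjusted p = 0.137, edgeR) and −2.81 with LPS (SE 0.99, adjusted p = 0.130).

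Aldh1a3 (chromosome 7, 66390892 to 66427477) was at 51.0, 4.79 and 93.2 CPM in embryonic PBS and at 444, 243 and 571 CPM in adult PBS libraries. With LPS it was at 76.9, 5.15 and 129 CPM in embryonic and at 477, 243 and 553 CPM in adult libraries. Every adult library lay above every embryonic library, and embryonic culture 2 was far below the other embryonic cultures with either treatment. The log2 fold change was −3.08 with PBS (SE 1.12, adjusted p = 0.154, edgeR) and −2.59 with LPS (SE 1.09, adjusted p = 0.199). When culture 2 of both stages was left out, many more of all tested genes were called, with the counts given in the closing section. All 3 dehydrogenase genes were then among those called as lower in embryonic stroma in each comparison, and Cyp26b1 and Rarb stayed called. The log2 fold change at PBS was −1.52 for Aldh1a1, −4.20 for Aldh1a2 and −2.82 for Aldh1a3 (adjusted p = 0.0460, 0.00115 and 0.00945, edgeR). Cultures 2 were left out because they stood apart in these same members, so the added calls are no separate support. The close paralog Aldh1a7, with which Aldh1a1 could share reads, was at no more than 2.54% of Aldh1a1 in CPM.

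The CRABP genes encode small proteins that carry retinoic acid in the cytosol, CRABP2 to the receptors. Crabp1 (chromosome 9, 54764748 to 54773110) was barely detected and was not tested. It had 52, 6 and 6 counts in embryonic PBS, 39, 1 and 5 in embryonic LPS, 0, 8 and 4 in adult PBS and 0, 10 and 2 in adult LPS libraries. Only embryonic culture 1 was clearly above the others, with 1.57 CPM with PBS and 1.37 CPM with LPS.

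Crabp2 (chromosome 3, 87948693 to 87953372) was at 5.79, 25.2 and 11.8 CPM in embryonic PBS, 4.80, 29.2 and 9.20 in embryonic LPS, 19.7, 1.64 and 12 in adult PBS and 16.3, 1.35 and 7.61 in adult LPS libraries. The stages overlapped, with culture 2 as the highest of the embryonic and the lowest of the adult cultures. The log2 fold change was 0.36 with PBS (SE 1.02, adjusted p = 0.908, edgeR) and 0.78 with LPS (SE 1.03, adjusted p = 0.724). Its sign turned without culture 2 of both stages, to −0.86 and −0.77.

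Rara (chromosome 11, 98927800 to 98974942), which encodes the broadly expressed RARα, was at 24.5, 21.6 and 19.4 CPM in embryonic PBS, 16.9, 18.1 and 14.3 in embryonic LPS, 33.8, 17.5 and 29.6 in adult PBS and 30.2, 10.7 and 18.4 in adult LPS libraries. The stages overlapped with either treatment (log2 fold change −0.30 and −0.27, standard error 0.34 for each, adjusted p = 0.708 and 0.712, same edgeR test). Rarg (chromosome 15, 102234938 to 102257522), which encodes RARγ, was the most even member, at 39.2, 34.3 and 34.7 CPM in embryonic PBS, 41.0, 43.4 and 38.0 in embryonic LPS, 41.9, 44.2 and 38.6 in adult PBS and 46.5, 43.5 and 40.2 in adult LPS libraries. Its log2 fold change between the stages was −0.20 with PBS (SE 0.10, adjusted p = 0.309, edgeR) and −0.09 with LPS (SE 0.10, adjusted p = 0.674).

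**Figure D2:**
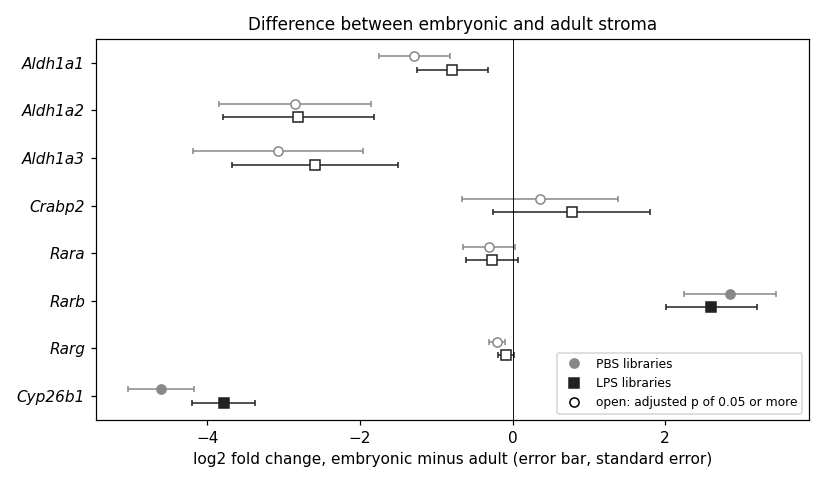
Log2 fold change of the 8 tested genes, embryonic minus adult, between PBS libraries (grey circles) and LPS libraries (black squares), with the standard error as the bar; filled symbols have an adjusted p under 0.05. Rarb lies to the right of 0 and Cyp26b1 to the left with either treatment, at 2.85 and −4.61 with PBS.

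Levels of different genes were compared per kilobase of exon (CPM per kb, on the summed exons of GENCODE M21). Aldh1a1 had the highest level of the 3 dehydrogenase genes in every library, with 55.5% to 89.2% of their sum in embryonic and 38.4% to 69.8% in adult libraries. Aldh1a3 made up 0.767% to 33.4% of the sum in embryonic and 26.2% to 36.5% in adult libraries, and Aldh1a2 made up 4.32% to 16.6% and 4.0% to 29.4%. The sum itself was 49.5 to 145 CPM per kb in embryonic and 167 to 339 CPM per kb in adult libraries. Among the receptors, whose summed level was 15.9 to 28.4 CPM per kb in embryonic and 14.0 to 19 CPM per kb in adult libraries, Rarb made up 16.6% to 55.7% in embryonic but 5.60% to 10.9% in adult libraries. Rarg made up 28.7% to 59.3% and 51.6% to 72.7%. Rarb was thus the leading receptor transcript per length in embryonic PBS 1 and PBS 3, and the lowest of the 3 in every adult library.

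**Figure D3:**
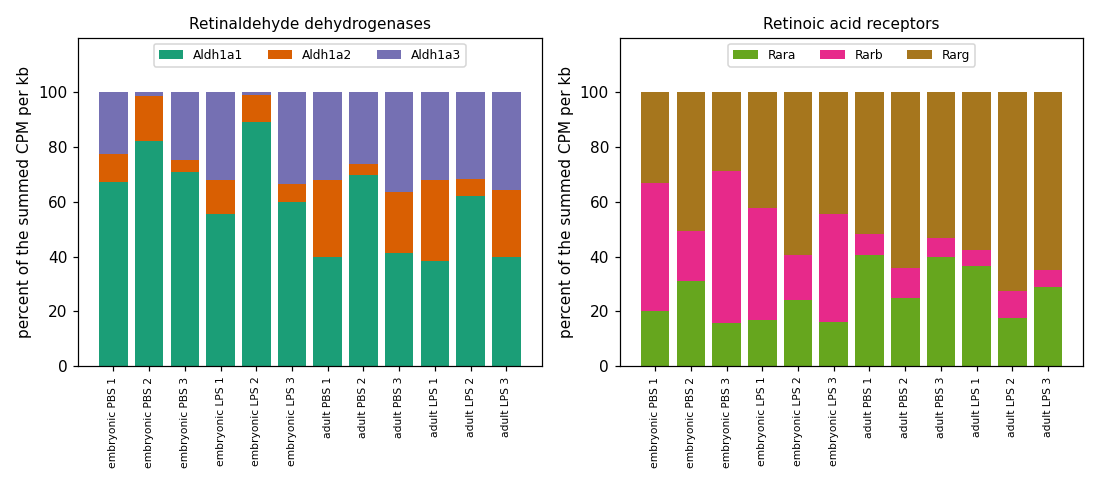
Share of each gene in the summed CPM per kb of the 3 retinaldehyde dehydrogenase genes (left) and the 3 receptor genes (right), with a bar for each library. Rarb takes 16.6% to 55.7% of the receptor sum in embryonic and 5.60% to 10.9% in adult libraries.

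The dehydrogenase genes and Cyp26b1 act at opposite ends of the life of retinoic acid, so their transcripts were also set against each other. The summed dehydrogenase level per Cyp26b1 level, both in CPM per kb, was 44.6, 52.3 and 33.9 in embryonic PBS, 46.1, 42.9 and 44.8 in embryonic LPS, 8.33, 4.58 and 7.23 in adult PBS and 10.2, 7.30 and 9.83 in adult LPS libraries. The ratio was higher in every embryonic than in every adult library, and both of its terms were lower in every embryonic library. It is a ratio of transcripts and says nothing of the amount of retinoic acid.

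Several members differed more between cultures of a stage than LPS changed them within a culture. Among the PBS libraries, Aldh1a3 ranged 19.2-fold, Rarb 5.41-fold, Crabp2 4.32-fold and Aldh1a2 4.10-fold in embryonic stroma, and Crabp2 ranged 11.6-fold and Aldh1a2 10.6-fold in adult stroma. In each stage, this range was larger than the LPS shift of every culture for 6 of the 8 tested members. Markers of other cells moved with some of these values. The summed level of 6 mesothelial markers (Msln, Upk3b, Wt1, Lrrn4, Upk1b and Krt19) was 152, 752 and 143 CPM in embryonic PBS, 156, 662 and 155 in embryonic LPS, 1377, 498 and 688 in adult PBS and 1428, 433 and 638 in adult LPS libraries. Within each of the 4 groups, the order of the 3 libraries by this sum was their order by Aldh1a2, although embryonic cultures 1 and 3 were nearly tied in the sum. Single markers had other orders, and Lrrn4 and Krt19 were highest in adult PBS 2, where Aldh1a2 was lowest. Across the stages the order did not hold. Embryonic PBS 2 had a sum of 752 CPM with Aldh1a2 at 33.1 CPM, and adult PBS 3 had 688 CPM with Aldh1a2 at 170 CPM. For Crabp2, the library highest in mesothelial markers was also the highest in each group, and the whole order was the same in both adult groups. For Aldh1a3, culture 3 was the highest and culture 2 the lowest in all 4 groups, as for the summed level of the 8 fibroblast markers, although single markers of that list, Pdgfra and Thy1 among them, had other orders. The part of cell composition in the values of these genes was not tested.

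**Figure D4:**
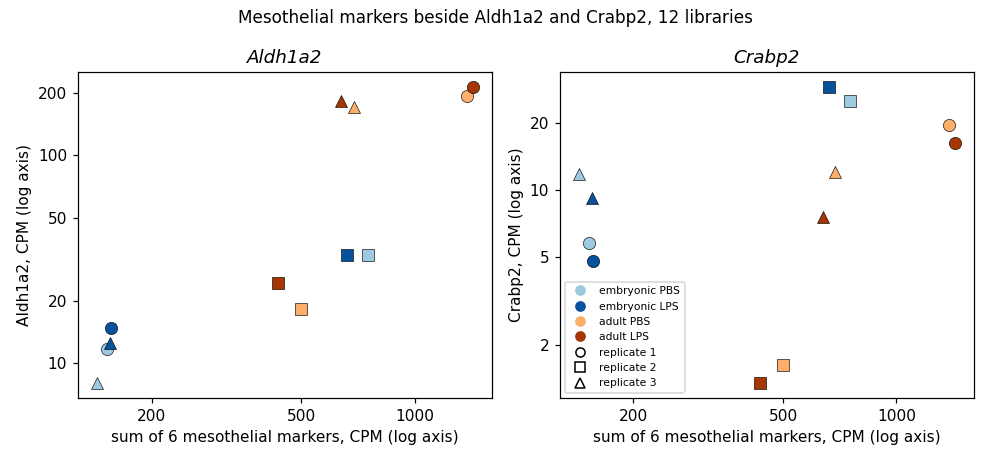
Aldh1a2 (left) and Crabp2 (right) in CPM against the summed CPM of 6 mesothelial markers in each of the 12 libraries, on logarithmic axes, with a colour for each group and a shape for each replicate number. Embryonic culture 2 lies with 752 and 662 CPM of mesothelial markers far to the right of the other embryonic cultures, which are at 143 to 156 CPM.

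The second comparison asked what LPS did to these genes. None of the 8 members was called in embryonic stroma, where 2.75% of all tested genes were called (same edgeR test), and none in adult stroma, where 0.606% were. None had an unadjusted p under 0.05 in either stage without a block, and DESeq2 also called 0. Same-numbered LPS and PBS libraries deviated together within a stage. With this number as a block, the model called 12.5% of all tested genes in embryonic and 6.20% in adult stroma. It called 1 of the 8 members, in embryonic stroma, a share near that of all tested genes. In embryonic stroma, 4 of the 8 members had an unadjusted p under 0.05, as had 3520 of all 13038 tested genes. In adult stroma, 3 of the members had, and 2333 of all tested genes. Aldh1a3 rose with LPS in embryonic stroma, by 0.43 on the log2 scale (adjusted p = 0.0235 and standard error 0.09, edgeR with the replicate block). Without the block its log2 fold change was 0.50 (standard error 1.04). The difference of log2 CPM between LPS and PBS was 0.59, 0.10 and 0.47 in embryonic cultures 1, 2 and 3, and 0.10, 0.00 and −0.05 in the adult cultures.

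Rara and Rarb had lower values with LPS than with PBS in all 3 cultures of both stages, though neither passed the test. The difference of log2 CPM for Rara was −0.53, −0.26 and −0.44 in the embryonic and −0.16, −0.70 and −0.68 in the adult cultures. For Rarb it was −0.47, −0.03 and −0.99 in the embryonic and −0.45, −0.36 and −0.41 in the adult cultures. With the block, the adjusted p of Rara was 0.0726 for the embryonic and 0.0590 for the adult cultures, and that of Rarb was 0.0775 and 0.285 (edgeR). Cyp26b1 was lower with LPS in all 3 adult cultures, with differences of −0.21, −0.94 and −0.46 (adjusted p = 0.263 with the block, edgeR), and differed in sign between the embryonic cultures, at 0.02, 1.01 and −0.37. Aldh1a1, likewise, was at −0.20, 0.84 and −0.21 in the embryonic cultures, so that culture 2 went the other way.

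**Figure D5:**
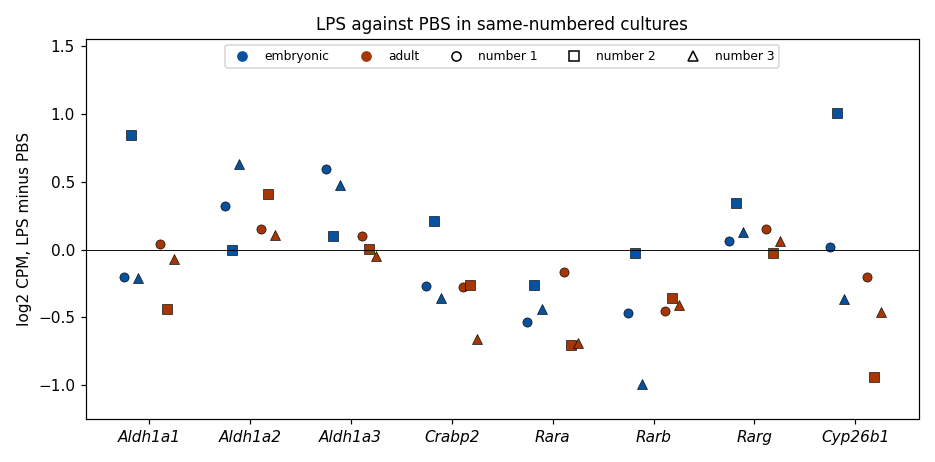
Difference of log2 CPM between LPS and PBS for each culture number, for the 8 tested genes in embryonic (blue) and adult (brown) cultures. All 6 points of Rara and of Rarb lie below 0, and Cyp26b1 and Aldh1a1 in embryonic culture 2 lie at 1.01 and 0.84.

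No member had a different response to LPS in the stages by the test of the interaction of stage and LPS. Without the block 0% of all tested genes were called (0 of 13038, with 293 at an unadjusted p under 0.05 and 25 called by DESeq2), and none of the 8 members had an unadjusted p under 0.05. With the block 0.844% of all tested genes were called and no member was. Aldh1a3 came nearest, with an embryonic response larger by 0.41 on the log2 scale (standard error 0.13, adjusted p = 0.364, edgeR with the replicate block).

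Of 70 other genes of the pathway, 49 passed the filter, and 2 of them were called in the comparison of stages with PBS, both lower in embryonic stroma, as well as with LPS. This share of the 49 was about equal to the 4.08% called among all tested genes with PBS and below the 5.31% with LPS. Cyp26a1, one of these and the other retinoic acid hydroxylase gene with enough counts, was low throughout, at 0.573, 0.366 and 0.419 CPM in embryonic PBS and 3.26, 1.73 and 1.19 CPM in adult PBS libraries. With LPS it was at 0.491, 0.380 and 0.233 CPM in embryonic and 1.79, 1.05 and 1.43 CPM in adult libraries. It passed the filter on low counts through the adult groups alone, since no embryonic group had all libraries above 0.5 CPM. All adult values exceeded all embryonic values, but given that filter, this gap and the calls are no separate support for a stage difference. The log2 fold change was −2.18 with PBS (SE 0.44, adjusted p = 0.0272, edgeR) and −1.93 with LPS (SE 0.45, adjusted p = 0.0376). The PBS call was lost without embryonic PBS 1, 2 or 3 (adjusted p = 0.0594, 0.0566 and 0.0725) or adult PBS 1 or 2 (0.0768 and 0.0547). The LPS call was lost without embryonic LPS 1, 2 or 3 (0.0546, 0.0697 and 0.111), adult PBS 2 (0.0532) or adult LPS 1, 2 or 3 (0.106, 0.0619 and 0.115).

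In the comparison of stages with PBS, none of the 12 tested genes that oxidise retinol or reduce retinaldehyde, the 4 receptor partners and carriers, the 9 coregulators or the 17 reported retinoic acid target genes was called (edgeR), and 1, 0, 1 and 6 of them had an unadjusted p under 0.05. Of all 13038 tested genes, 2584 had an unadjusted p under 0.05 in this comparison. DESeq2 called Gata6, Rai14 and Rarres1 among the genes of these lists, and they are named after their values were seen. Of these, Rarres1 passed the filter on low counts through the adult groups alone. The median log2 fold change of the 17 target genes was 0.19 with PBS and 0.26 with LPS, with 10 positive and 7 negative values in each. Rarb was higher and Cyp26a1 lower in embryonic stroma. The part of the repeat shown above in these differences was not tested.

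For LPS, none of the 49 genes was called without the block in either stage (edgeR). In embryonic and adult stroma, 3 and 4 of them had an unadjusted p under 0.05, and 1407 and 727 of all 13038 tested genes did. DESeq2 called Rdh14 in embryonic and Meis1 and Ncoa1 in adult stroma. With the block, 4 of the 49 were called in each stage, a share below the 12.5% of all tested genes in embryonic stroma and near the 6.20% in adult stroma, so that the genes named here do not set the pathway apart. Meis1, a homeobox gene known as a target of retinoic acid, was at 46.0, 22.4 and 43.2 CPM with PBS and 25.6, 16.3 and 19.3 CPM with LPS in the embryonic cultures, and at 25.8, 21.8 and 32.6 CPM with PBS and 10.4, 14.1 and 13.7 CPM with LPS in the adult cultures. It fell by 0.82 on the log2 scale in embryonic stroma (standard error 0.17, adjusted p = 0.0161, edgeR with the block) and by 1.07 in adult stroma (SE 0.17, adjusted p = 0.00990). Its relative Meis2 fell by 0.67 in adult stroma (adjusted p = 0.0205, same fit) and had a log2 fold change of −0.38 in embryonic stroma (adjusted p = 0.0888).

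Ncoa1, a coactivator of nuclear receptors, fell by 0.44 in embryonic and by 0.56 in adult stroma with the block (adjusted p = 0.0479 and 0.0330, edgeR). Nrip1, a corepressor of nuclear receptors, rose by 0.65 in adult stroma (adjusted p = 0.0426, same fit) and had a log2 fold change of 0.46 in embryonic stroma (adjusted p = 0.0808). Rdh14, a retinol dehydrogenase gene, fell by 0.40 in embryonic stroma (adjusted p = 0.0302, same fit), from 17.3, 19.1 and 18.2 CPM with PBS to 13.9, 15.2 and 12.3 CPM with LPS, and had a log2 fold change of −0.07 in adult stroma (adjusted p = 0.799). The transcription factor gene Gata6 rose by 0.66 in embryonic stroma (adjusted p = 0.0183, same fit) and had a log2 fold change of 0.17 in adult stroma (adjusted p = 0.579). None of these differences between the stages passed the test of the interaction.

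The genes whose log2 CPM followed a member most closely over the 12 libraries were found by Pearson's r among all tested genes, as a description, since the libraries share cultures and a few cultures set most of the range. Rarb was followed most closely by Tgfbi (r = 0.985), Tbc1d16 (0.983) and Pag1 (0.981), and Cyp26b1 by Lrrn4cl (0.988), Kazald1 (0.987) and Dlg2 (0.985). Aldh1a1 was followed by 2410066E13Rik (0.975), Camk2n2 (0.970) and Aox1 (0.970), Aldh1a2 by Foxs1 (0.976), Foxn1 (0.973) and Aplp1 (0.972), and Aldh1a3 by Ctsk (0.985) and Scn2a1 (0.982). The closest genes had lower r for Crabp2 (Gabarap, 0.955; Arpc2, 0.941; Slc44a4, 0.937), Rara (Tead3, 0.924; Oat, 0.918; Sgtb, 0.906) and Rarg (Akap11, 0.906; Cpt1c, 0.882; Tex15, 0.874).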

How the data were processed

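The authors trimmed the reads, mapped them to GRCm38.p6 with STAR, keeping reads that mapped uniquely with at most 1 mismatch, and deposited raw counts for every gene and library, without normalization. The labels name mm10, the same assembly. The strand column that held nearly all reads was used (the opposite strand held 1.14% to 1.98%), and unassigned reads were left out. Genes with a CPM above 0.5 in all libraries of a group were kept, as in the study's methods, which left 13038. Counts were fitted in R 4.3.3 with edgeR 4.0.16 (TMM, glmQLFit, glmQLFTest) in 1 model of the 4 groups, and a gene was called at an adjusted p under 0.05. The standard error is the absolute log2 fold change divided by the square root of F. Log2 CPM used a prior count of 2. CPM used the totals and TMM factors of the kept genes. Figures used Python 3.11.15 and matplotlib 3.10.9.

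Same-numbered LPS and PBS libraries of a stage deviated together from their group means (r across genes 0.71 to 0.78 in embryonic and 0.61 to 0.85 in adult stroma), so the LPS responses and the interaction were fitted a further time with a block for each number of a stage. The pairing is inferred from the numbers in the labels. Alternatives were DESeq2 1.42.0, other size factors, filters, thresholds and sample sets, counts of both strands, and libraries left out. The embryonic cultures were pools and the adult ones came from mice, so the units are cultures, 3 for each stage. With the block, p-values measure the spread of the LPS shift between cultures, and not the spread of levels between cultures. Without the block, the model took the LPS and PBS libraries of a culture as independent, although they deviated together. Its spread was thus estimated over all 12 libraries, and is not that of 3 cultures for each stage. Libraries of a group differed far beyond counting noise (chi-square per gene 33.3 to 304). Of the symbols, 20748 matched RefSeq's annotation of GRCm38.p6 directly and 2331 through a synonym. Scripts were tested on simulated counts with known changes. The members, the lists of pathway genes and markers, and the rule for named genes (all members, list genes called in both stage comparisons or in an LPS response, and the 3 genes most like each member) were chosen with earlier results of these data known. A few genes that the rule names are not reported here.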

Additional observations from a re-analysis of the deposited data

Results flagged for a closer look

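No member or other pathway gene passed the test of the interaction of stage and LPS. Among the marker genes of other cell types, Kdr, an endothelial receptor gene, did so with the replicate block. Its LPS response was 2.13 higher on the log2 scale in embryonic than in adult stroma (adjusted p = 0.0481, edgeR), with higher values in 3 of 3 embryonic cultures and lower values in 3 of 3 adult cultures. Without the block it was not called. Kdr did not follow Pecam1, another endothelial marker. In adult PBS 1, 2 and 3, Kdr was at 15.0, 13.7 and 16.8 CPM and Pecam1 at 0.916, 431 and 79.1 CPM. The cells that carried the Kdr transcripts are thus not known.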

How the results depend on the processing

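The calls of Cyp26b1 between the stages held under every alternative run, and the sign of the stage difference of each other member did too, except for Crabp2 and Rara. The cause of the changes listed here was not tested. With DESeq2, 1552 and 1704 genes were called between the stages with PBS and LPS (532 and 692 by edgeR), 684 and 294 in the LPS responses of embryonic and adult stroma (358 and 79 by edgeR) and 25 for the interaction, with 5 and 4 members and 6 and 5 pathway genes between the stages and 1 and 2 pathway genes in the LPS responses. With only the 6 libraries compared, the counts were 173 and 70 between the stages, 4 and 227 in the LPS responses, 1 member and 0 pathway genes in each stage comparison. With the replicate block within a stage, 1635 and 808 genes were called in the LPS responses and 110 for the interaction, with 1 member in embryonic stroma and 4 pathway genes in each stage, and the block changed no other call of a member or pathway gene. Embryonic and adult libraries share only a number (r of their deviations −0.31 to −0.0022), and a replicate block across stages called 891 and 1059 genes, with 4 pathway genes with PBS. With a log2 fold change of at least 2 in size, 291 and 385 genes and, with LPS, 0 pathway genes were called between the stages. At an adjusted p under 0.01 the counts were 102 and 96 between the stages and 119 and 16 in the LPS responses, with 1 member and 0 pathway genes in each stage comparison. Without a filter on low counts, 1 pathway gene was called with LPS between the stages and 1 in embryonic stroma in response to LPS, as was so with the filter of edgeR (filterByExpr).

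Leaving out culture 2 was chosen after the data were seen. Without the embryonic one, 1291 and 1379 genes were called between the stages, 4 members in each, 7 and 8 pathway genes, and 119 genes and 1 pathway gene in the adult LPS response. Without the adult one, the counts were 322 and 293 between the stages with 1 pathway gene in each, and 228 and 17 in the LPS responses. Without both, they were 1254 and 1283 between the stages with 5 members in each and 5 and 7 pathway genes, and 132 and 29 in the LPS responses. The log2 fold change of Crabp2 was −0.35 with PBS and −0.27 with LPS without the embryonic one, −0.16 with PBS without the adult one, and −0.86 and −0.77 without both.

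With 1 library left out at a time, 152 to 638 genes were called between the stages with PBS (fewest without adult PBS 3) and 132 to 814 with LPS (fewest without adult LPS 3), with 1 to 3 members in each, 1 to 3 pathway genes with PBS and 0 to 3 with LPS. In the LPS responses, 95 to 471 genes were called in embryonic stroma (fewest without embryonic PBS 1), with 0 to 1 pathway genes, and 4 to 145 in adult stroma (fewest without adult PBS 3). The stage difference of Crabp2 ranged from −0.35 to 1.06 with PBS and from −0.27 to 1.70 with LPS, turning without the embryonic library of culture 2 and, with PBS, without the adult one (−0.15). That of Rara with LPS ranged from −0.56 to 0.18, turning without adult LPS 1. The LPS response of Aldh1a3 in embryonic stroma without the block ranged from −0.28 to 1.34, turning without embryonic PBS 2 (−0.03) or embryonic LPS 3. Crabp1 was not tested, because in no group did all libraries exceed 0.5 CPM.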
